A study of Mus musculus with 2 samples.

Results

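The mitochondrial genome of the mouse encodes 37 genes, and all 37 were found among the 55536 annotated genes of the deposited tables by their symbols, which begin with mt-. They are 13 mRNAs, 2 rRNAs and 22 tRNAs. The samples were macrophages grown from bone marrow of C57BL/6J mice. Lipid A, the lipopolysaccharide component sensed by Toll-like receptor 4, was given at 100 ng/ml for 12 h and washed out for 12 h, and the cells were collected at 0 min of a second exposure. RNA of the nucleoplasmic fraction, labelled as nuclear, was depleted of ribosomal RNA and sequenced in 2 libraries, biological replicates 2 and 1, from 500 ng and 1 µg of RNA. The libraries belong to 1 group, so no conditions were compared and no p-value was computed, and the starting amount and the replicate number cannot be told apart. Ratios of replicate 2 over replicate 1 describe the spread between the libraries, which may be technical.

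Mitochondrial DNA is a small circle transcribed along both strands into long precursors, from which tRNAs are cut out and leave mRNAs and rRNAs between them. The mRNAs encode core subunits of the respiratory chain and of ATP synthase. Those of the mt-Nd genes belong to NADH dehydrogenase (complex I), mt-Cytb to the cytochrome bc1 complex (complex III), mt-Co1 to mt-Co3 to cytochrome c oxidase (complex IV), and mt-Atp6 and mt-Atp8 to ATP synthase (complex V). The rRNAs mt-Rnr1 and mt-Rnr2 form the cores of the small and large subunits of the mitochondrial ribosome. This transcription takes place inside mitochondria, outside the nucleus, and parts of the mitochondrial genome have also been copied into nuclear chromosomes during evolution.

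The libraries held 18612405 expected counts (replicate 2) and 22907877 expected counts (replicate 1) on annotated genes, an expected count being a read number estimated for a gene. Markers were read in TPM, a level corrected for gene length and scaled to a fixed library total. All 14 macrophage markers, Lyz2 and Csf1r among them, reached 1 TPM in each library. Of 23 markers of neutrophils, T cells, B cells, erythroid and stromal cells, 0 did, and their summed level was 3.48 TPM in replicate 2, against 3.32 TPM in replicate 1. The nuclear RNAs Malat1, Neat1 and Xist differed little between the libraries, with log2 ratios of scaled counts of -0.17, -0.08 and 0.10. The amount of mitochondria carried along with the nucleoplasm was not measured.

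The sequences of the members bear on how well their reads can be assigned. An alignment of all annotated transcripts to the members found 17 nuclear genes that match a member over at least 100 bases at 90% identity or more. Of these, 7 lie side by side on the minus strand of chromosome 1 in a block of 4663 bases (chr1:24611535-24616197, GRCm38), annotated as unprocessed pseudogenes. The block repeats, in the order of the mitochondrial genome, the end of mt-Co1 (copy Gm29216), mt-Co2 (Gm28661), mt-Atp6 (Gm10925), mt-Co3 (Gm28437), mt-Nd3 (Gm28438), mt-Nd4l (Gm10222) and the start of mt-Nd4 (Gm28439). Identity was 100% for 5 of the 7, over 681 bases of mt-Co2, 678 of mt-Atp6, 783 of mt-Co3, 294 of mt-Nd4l and 876 of mt-Nd4. The other two each had 1 mismatch, over 345 bases of mt-Nd3 and 483 of mt-Co1. Sequences below are from the GENCODE transcripts of GRCm38, written 5′ to 3′, all from exons.

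The 3′ ends of mt-Co2 (chrM:7643-7696, plus strand) and Gm28661 (chr1:24614885-24614935, minus strand) are shown because nothing but the last bases of the annotated transcripts separates them. Capitals mark the bases of mt-Co2 beyond the annotated end of the copy.
mt-Co2 3-prime end: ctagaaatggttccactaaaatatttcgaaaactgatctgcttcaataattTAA
Gm28661 3-prime end: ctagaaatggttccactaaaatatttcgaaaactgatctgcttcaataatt

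The starts of mt-Nd3 (chrM:9459-9499, plus strand) and Gm28438 (chr1:24613079-24613119, minus strand) hold the single difference of that pair, T3C, counted from 1 at the 5′ end of mt-Nd3 and marked by the capital.
mt-Nd3 window: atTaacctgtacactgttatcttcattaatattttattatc
Gm28438 window: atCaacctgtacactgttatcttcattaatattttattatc

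A stretch of mt-Co1 (chrM:6373-6413, plus strand) and the start of Gm29216 (chr1:24616157-24616197, minus strand) hold the difference A1066T, counted from 1 at the 5′ end of mt-Co1 and marked by the capital. The alignment starts at base 10 of the copy, and the bases before it were not aligned to mt-Co1.
mt-Co1 window: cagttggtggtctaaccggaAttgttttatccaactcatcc
Gm29216 window: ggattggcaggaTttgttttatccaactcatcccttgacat

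The shortest of the 13 genes counted as mRNAs, mt-Atp8 (chrM:7766-7969, plus strand), is shown whole because its level depended most on a length correction. Capitals mark the 43 bases that it shares with mt-Atp6, which leave 161 bases of its own. mt-Nd4l and mt-Nd4 overlap by 7 bases, also on the same strand. Counts are given per gene, and RNAs that span both genes of such a pair were not looked for. Levels and ratios within these pairs are therefore not read as those of separate molecules.
mt-Atp8: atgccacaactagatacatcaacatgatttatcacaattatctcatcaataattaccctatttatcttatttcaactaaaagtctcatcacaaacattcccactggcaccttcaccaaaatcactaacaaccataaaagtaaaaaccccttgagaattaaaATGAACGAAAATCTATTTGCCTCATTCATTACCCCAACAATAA

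The 5 tRNAs with a mean of at least 100 estimated counts were all transcribed from the light strand, and their anticodons are in capitals. They are the tRNAs for asparagine (mt-Tn, chrM:5089-5159), cysteine (mt-Tc, chrM:5192-5257), serine (mt-Ts1, chrM:6870-6938), glutamic acid (mt-Te, chrM:14071-14139) and proline (mt-Tp, chrM:15356-15422), all annotated on the minus strand.
mt-Tn: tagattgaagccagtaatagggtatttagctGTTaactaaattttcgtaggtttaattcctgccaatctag
mt-Tc: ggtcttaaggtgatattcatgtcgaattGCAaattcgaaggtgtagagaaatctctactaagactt
mt-Ts1: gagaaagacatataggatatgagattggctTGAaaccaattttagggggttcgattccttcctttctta
mt-Te: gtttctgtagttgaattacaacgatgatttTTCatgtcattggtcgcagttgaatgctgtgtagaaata
mt-Tp: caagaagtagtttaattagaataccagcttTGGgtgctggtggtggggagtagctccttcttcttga

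Mitochondrial transcripts held 6.82% of the expected counts in replicate 2 and 3.47% in replicate 1, a mean of 5.15% ± 2.37 (SD, n = 2). The exact binomial 95% intervals, which cover counting error only, ran from 6.81% to 6.84% in replicate 2 and from 3.46% to 3.47% in replicate 1, so the libraries differed by far more than counting error. Nearly all of it was mRNA, at 6.77% in replicate 2 and 3.30% in replicate 1. The mitochondrial rRNAs went the other way, with 0.0495% in replicate 2 and 0.171% in replicate 1. With the nuclear copies added, the whole set held 8.63% of expected counts in replicate 2 and 4.25% in replicate 1.

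A second deposited quantification of the same reads gave somewhat lower shares of counts. There the 37 genes held 6.08% of the estimated counts in replicate 2 and 3.20% in replicate 1, and 7.02% and 3.51% with the copies. As shares of summed TPM the tables lay further apart, with 8.42% in replicate 2 and 3.69% in replicate 1 in the gene-level tables, against 4.76% and 1.65% in the second quantification. In each of these measures replicate 2 had the higher share. All 22 tRNAs were listed at 0 in the gene-level tables of both libraries. Their effective length, the number of positions at which a fragment could start, was also listed as 0 there. How the authors' program treats such genes was not tested, so these zeros are not read as absence.

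Levels of the mRNAs spread widely along the genome. In the gene-level tables the highest mean was that of mt-Atp8, an accessory subunit of ATP synthase, at 32879 TPM in replicate 2, against 8394 TPM in replicate 1, a mean of 20637 ± 17314 TPM (SD, n = 2). It was followed by mt-Co1 (ENSMUSG00000064351.1, chrM:5328-6872), the catalytic subunit of cytochrome c oxidase, at 17975 TPM in replicate 2, against 10656 TPM in replicate 1. The ranges of the pair overlapped, so they could not be ordered. mt-Co1 had a range above that of every gene below it.

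The complex I subunits stood in the middle. The light-strand mRNA mt-Nd6 had 6167 TPM in replicate 2, against 4843 TPM in replicate 1. Its neighbour mt-Nd5, which overlaps its end by 14 bases on the opposite strand, had 4954 TPM in replicate 2, against 2499 TPM in replicate 1. The assignment of reads in this overlap is uncertain. The use of strand in counting was not given, so over the rest of mt-Nd6 antisense reads cannot be told apart either. mt-Nd1, which sits where the membrane arm of the complex meets its peripheral arm, had 5573 TPM in replicate 2, against 1811 TPM in replicate 1. mt-Nd4, a proton-pumping subunit, had 4178 TPM in replicate 2, against 1863 TPM in replicate 1, and mt-Nd2, another such subunit, had 2858 TPM in replicate 2, against 963 TPM in replicate 1. Among these genes neighbours in the order of means had overlapping ranges. mt-Cytb, the cytochrome b subunit of complex III, fell among them with 4554 TPM in replicate 2, against 1932 TPM in replicate 1.

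The short complex I mRNAs and the other subunits of complexes IV and V stood lower. mt-Nd4l, a small membrane-arm subunit, had 1726 TPM in replicate 2, against 1277 TPM in replicate 1, and mt-Nd3, another, had 584 TPM in replicate 2, against 380 TPM in replicate 1. mt-Atp6, the subunit of the proton channel of ATP synthase, had 1120 TPM in replicate 2, against 422 TPM in replicate 1. For the oxidase, mt-Co3, a core subunit without metal centres, had 912 TPM in replicate 2, against 392 TPM in replicate 1. mt-Co2 (ENSMUSG00000064354.1, chrM:7013-7696), the subunit that takes electrons from cytochrome c, had the lowest level of all 13 mRNAs, 230 TPM in replicate 2, against 73.3 TPM in replicate 1. In the order of means, the ranges of neighbours were apart at 2 places, below mt-Co1 and below mt-Nd4l. The rRNAs had 283 TPM (mt-Rnr1) and 122 TPM (mt-Rnr2) in replicate 2, and 698 and 626 TPM in replicate 1.

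**Figure D1:**
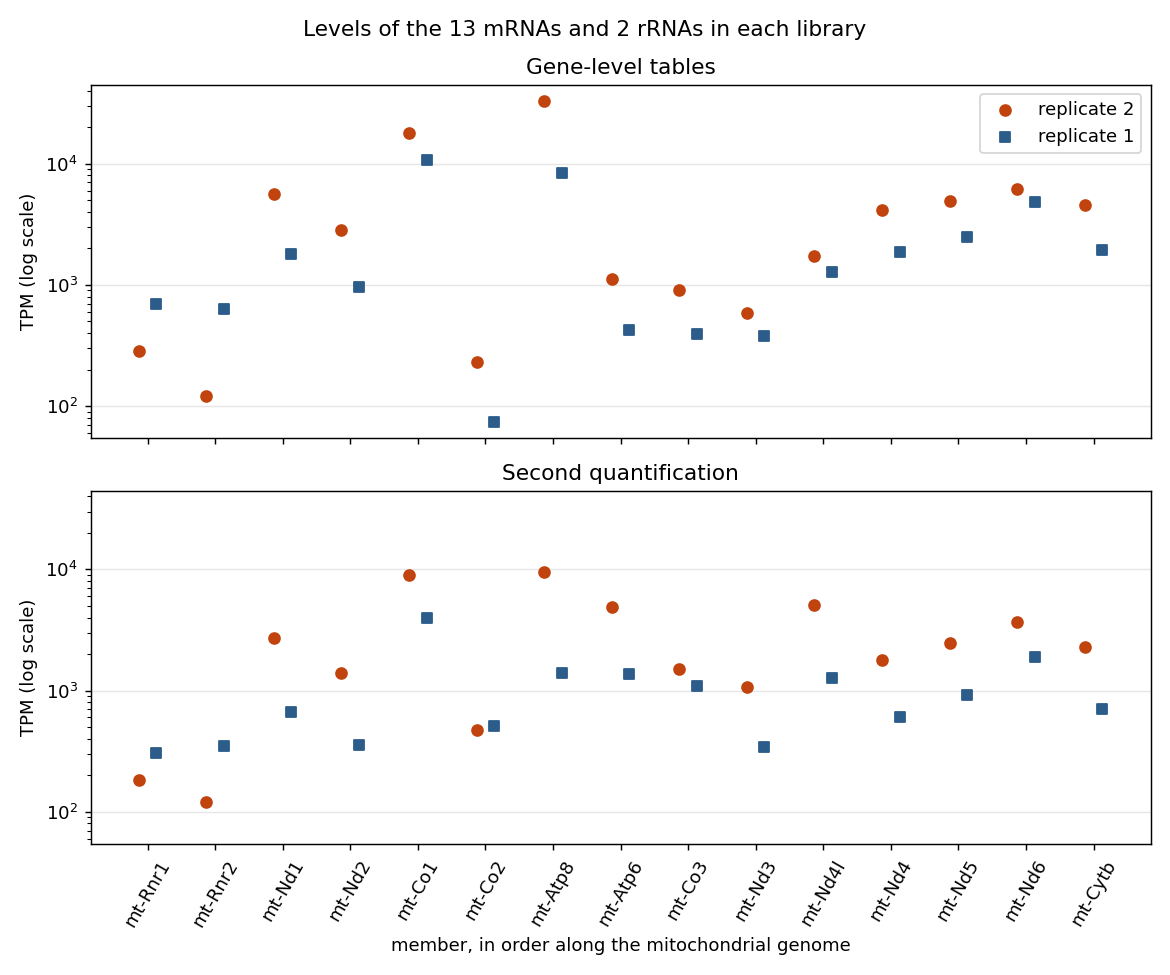
Levels of the 13 mRNAs and 2 rRNAs in TPM (log scale) in replicate 2 (circles) and replicate 1 (squares), in order along the mitochondrial genome, from the gene-level tables (top) and the second quantification (bottom). In the gene-level tables all 13 mRNAs are higher in replicate 2 and both rRNAs lower, mt-Atp8 and mt-Co1 are highest, and mt-Co2 has 230 TPM in replicate 2, against 73.3 TPM in replicate 1.

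The order of levels depended on how gene length was corrected for. mt-Atp8 is 204 bases long, and the labelled size range is 250 to 400, given with no unit. The effective length of mt-Atp8 was 21.8 bases in replicate 2 and 17.2 bases in replicate 1. Its expected counts were 17574 in replicate 2 and 4197 in replicate 1, against 586095 and 405440 for mt-Co1. Divided by gene length, mt-Atp8 had 86147 counts per kb in replicate 2 and 20574 counts per kb in replicate 1. mt-Co1 had 379350 counts per kb in replicate 2 and 262421 counts per kb in replicate 1. On that scale mt-Co1 stood above mt-Atp8 in both libraries, with no overlap.

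In the second quantification mt-Co1 and mt-Atp8 were again the 2 highest by mean. mt-Co1 had 8956 TPM in replicate 2, against 3955 TPM in replicate 1, and mt-Atp8 had 9542 TPM in replicate 2, against 1399 TPM in replicate 1. The next were mt-Nd4l, with 5043 TPM in replicate 2, against 1264 TPM in replicate 1, and mt-Atp6, with 4886 TPM in replicate 2, against 1360 TPM in replicate 1. Both stood among the lower mRNAs of the gene-level tables. Other genes take different parts of the TPM total in the 2 kinds of table, so the orders are set side by side here and not the levels.

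Counts of several mRNAs differed between the quantifications. The gene-level tables gave mt-Co2 2649 counts in replicate 2 and 957 in replicate 1, against 14779 and 19184 in the second quantification. Scaled to the table totals, the log2 ratio of gene-level over second counts for mt-Co2 was -1.69 in replicate 2 and -3.92 in replicate 1. For mt-Atp6 it was -2.77 in replicate 2 and -2.79 in replicate 1, and for mt-Co3 -1.37 in replicate 2 and -2.57 in replicate 1. The short complex I mRNAs were also lower in the gene-level tables. mt-Nd4l had a log2 ratio of -2.33 in replicate 2 and -1.36 in replicate 1, and mt-Nd3 of -1.54 in replicate 2 and -1.06 in replicate 1.

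These 5 of 13 mRNAs passed a log2 ratio of 1 in size in both libraries, all lower in the gene-level tables, and all 5 have a copy in the chromosome 1 block. Of all 15110 genes tested, 25.9% passed, and 25.8% passed by being lower in the gene-level tables, so a lower gene-level count was common among genes in general. The median over the 13 mRNAs was 0.15 in replicate 2 and 0.27 in replicate 1, against -0.11 and -0.13 over all genes tested. Scaled to the table totals, the other 8 mRNAs had more in the gene-level tables than in the second quantification in both libraries. Their log2 ratios reached 0.55 in replicate 2 and 0.51 in replicate 1.

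The counts that the gene-level tables did not assign to these genes lay on their copies. Of the counts shared by mt-Co2 and its copies, 106661 in replicate 2 and 69732 in replicate 1, the gene-level tables gave mt-Co2 2.48% in replicate 2 and 1.37% in replicate 1, and Gm28661 held nearly all the rest (103973 and 68769 counts). The second quantification gave mt-Co2 10.2% in replicate 2 and 26.0% in replicate 1. For mt-Atp6 the gene-level tables gave the mitochondrial gene 12.1% in replicate 2 and 11.5% in replicate 1. The second quantification gave it 99.96% in replicate 2 and 99.1% in replicate 1. The larger part of these counts was on Gm10925 in the gene-level tables and on mt-Atp6 in the second quantification. The unscaled sums over gene and copies were 105459 counts in replicate 2 and 47467 in replicate 1 in the gene-level tables. In the second quantification, which holds more counts in all, they were 151709 and 50848. Scaled to the table totals, the log2 ratio of gene-level over second counts for this sum was 0.27 in replicate 2 and 0.31 in replicate 1.

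The division of the remaining pairs differed again. mt-Co3 held 16.8% of its shared counts in replicate 2 and 11.8% in replicate 1 in the gene-level tables, and 55.1% in replicate 2 and 88.8% in replicate 1 in the second quantification. For mt-Nd3 the gene-level shares were 26.998% in replicate 2 and 39.4% in replicate 1, and for mt-Nd4l 21.4% in replicate 2 and 36.6% in replicate 1. In the second quantification mt-Nd4l held 100% in both libraries, and mt-Nd3 99.95% in replicate 2 and 100% in replicate 1. mt-Nd4, of which only a part is copied, held 67.6% in replicate 2 and 81.4% in replicate 1 in the gene-level tables, and 57.4% in replicate 2 and 68.9% in replicate 1 in the second quantification. mt-Co1 held over 97% in both tables and both libraries.

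**Figure D2:**
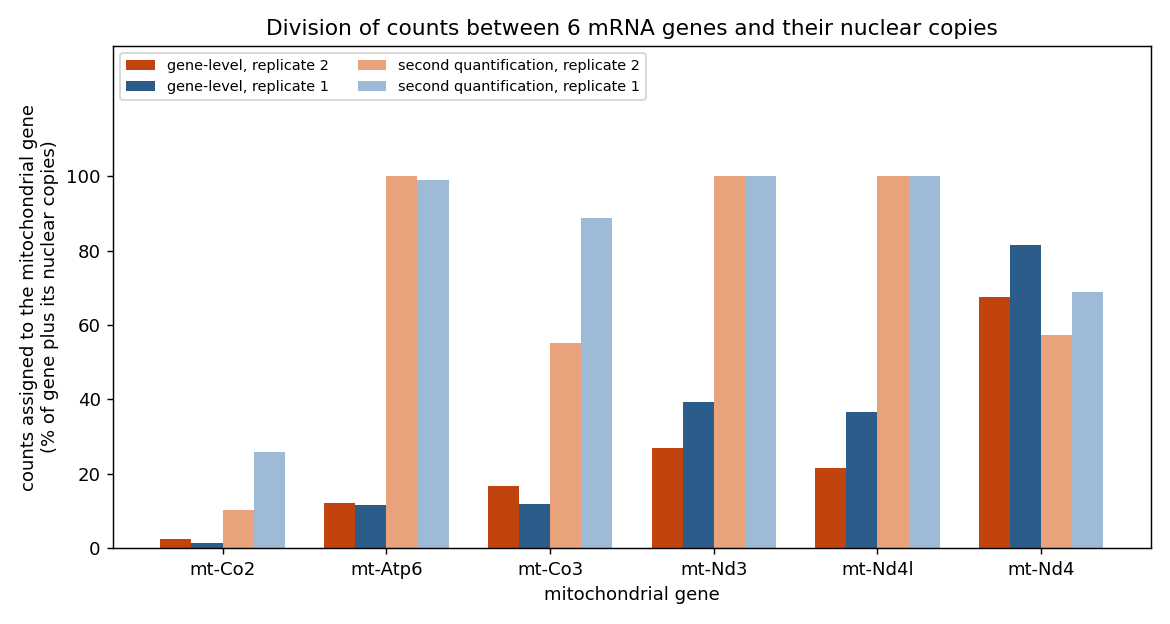
Percent of the counts of each mitochondrial gene plus its nuclear copies that was assigned to the mitochondrial gene, for 6 mRNA genes, in the gene-level tables (dark bars) and the second quantification (pale bars), in replicate 2 (red) and replicate 1 (blue). The share of mt-Atp6 is 12.1% and 11.5% in the gene-level tables and near 100% in the second quantification.

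The deposited tables also give a posterior SD, the uncertainty of a gene's count in the authors' estimate, and it was large for the same genes. mt-Co2 had a posterior mean of 9579 counts with a posterior SD of 2360 in replicate 2, and 4463 with 1259 in replicate 1, so this mean was above the expected count in both libraries. mt-Co3 had 28324 with 4274 in replicate 2 and 21735 with 2778 in replicate 1. mt-Atp6 had 19157 with 2613 in replicate 2 and 8432 with 1559 in replicate 1. For mt-Atp8, mt-Nd5, mt-Nd6, mt-Cytb and the rRNAs the posterior SD was 0 in both libraries. None of these has a copy in the block.

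The copies of the block held more in the gene-level tables, with 335755 counts in replicate 2 and 178274 in replicate 1 (1.80% and 0.778% of the totals), against 302423 and 91813 in the second quantification (0.937% and 0.302%). In the gene-level tables, the other 10 copies had 86.0 counts in replicate 2 and 12.2 in replicate 1 in all. Within the block, after Gm28661, Gm10925 had 92663 counts in replicate 2 and 41998 in replicate 1, Gm28437 had 62861 and 46491, and Gm28439 had 57091 and 14119. The shorter copies Gm10222, with 13735 counts in replicate 2 and 4869 in replicate 1, and Gm28438, with 5257 and 2029, came after them. Gm29216 had 175 counts in replicate 2 and 0 in replicate 1 in the gene-level tables, against 21655 and 4406 in the second quantification. Outside the block, Gm13340 on chromosome 2, which matches mt-Co1 at 97.6% identity, had 46.2 counts in replicate 2 and 5.02 in replicate 1 in the gene-level tables, against 298 and 66.3 in the second quantification. So copies that differ from the mitochondrial sequence at many bases held few counts. Summed with their copies, the mRNAs differed less between the tables. With copies added, 0 of 13 mRNAs passed a log2 ratio of 1 between the tables, and the ratios lay from -0.11 to 0.38 in replicate 2 and from 0.09 to 0.34 in replicate 1. The Spearman correlation of TPM between the tables, over the 13 mRNAs and from the same reads, was 0.72 in replicate 2 and 0.66 in replicate 1 for the genes alone. With copies it was 0.97 in replicate 2 and 0.98 in replicate 1. Whether reads of the block came from the mitochondrial or the nuclear sequence cannot be told apart.

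With copies, the order of levels changed. mt-Co2 moved from the lowest mRNA to rank 3, with 9331 TPM in replicate 2, against 5377 TPM in replicate 1. mt-Atp6 took rank 4, with 9280 TPM in replicate 2, against 3682 TPM in replicate 1, and mt-Nd4l rank 5, with 8241 TPM in replicate 2, against 3562 TPM in replicate 1. mt-Nd4 had 7700 TPM in replicate 2, against 2621 TPM in replicate 1. The values with copies add the TPM of gene and copies, each corrected for its own length. Gm28439 covers 876 of the 1378 bases of mt-Nd4, so that sum is not a level on the length of mt-Nd4. mt-Co3 had 5425 TPM in replicate 2, against 3310 TPM in replicate 1. mt-Nd3 was now the lowest mRNA, with 2199 TPM in replicate 2, against 977 TPM in replicate 1, above the range of mt-Rnr1. With copies, the TPM ranges of neighbours were apart below mt-Co1, as before, and between mt-Nd3 and the rRNAs, and the others overlapped. The effective length of mt-Nd4l was only 88.6 bases in replicate 2 and 75.8 bases in replicate 1. As counts per kb with copies, mt-Nd4l had 58872 in replicate 2 and 25852 in replicate 1, at rank 11. On that scale mt-Co2 had rank 2, mt-Atp6 rank 3 and mt-Nd4 rank 4. The ranges there were apart below mt-Co1 and below mt-Nd2, and those of mt-Nd3 and mt-Rnr1 overlapped.

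Between the libraries, the mRNAs of the gene-level tables passed a log2 ratio of 1 in 9 of 13 cases, all of them higher in replicate 2. Of the 10198 genes that averaged at least 100 counts, 2.01% passed in either direction and 0.833% were higher in replicate 2. In the second quantification 8 of 13 passed, against 3.32% of 15106 genes in either direction and 2.03% higher in replicate 2. The median log2 ratio over the 13 mRNAs was 1.28 in the gene-level tables and 1.27 in the second quantification, against -0.01 over all genes in both. Adding the copies moved the medians to 1.36 and 1.28 and left the counts at 9 and 8 of 13. In the gene-level tables the genes that passed changed. mt-Co2 (1.72 alone, 0.87 with copies) and mt-Co3 (1.28 and 0.77) no longer passed, and mt-Nd3 (0.82 and 1.36) and mt-Nd4l (0.67 and 1.44) now did. With copies, all 13 mRNAs were higher in replicate 2 in both quantifications. The share of all genes higher in replicate 2 by any amount was not computed.

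The ratios of several genes with copies differed between the quantifications, while those of the sums differed little. The log2 ratio of mt-Co2 alone was 1.72 in the gene-level tables and -0.52 in the second quantification, and with copies it was 0.87 and 0.82. For mt-Co3 alone it was 1.28 in the gene-level tables and 0.06 in the second quantification, and with copies 0.77 and 0.75. mt-Nd4l gave 0.67 in the gene-level tables and 1.63 in the second quantification alone, and 1.44 and 1.63 with copies. The largest gap between the quantifications was 2.25 for the genes alone and 0.19 with copies. The Spearman correlation of the 13 ratios between the quantifications was 0.24 for the genes alone and 0.96 with copies.

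**Figure D3:**
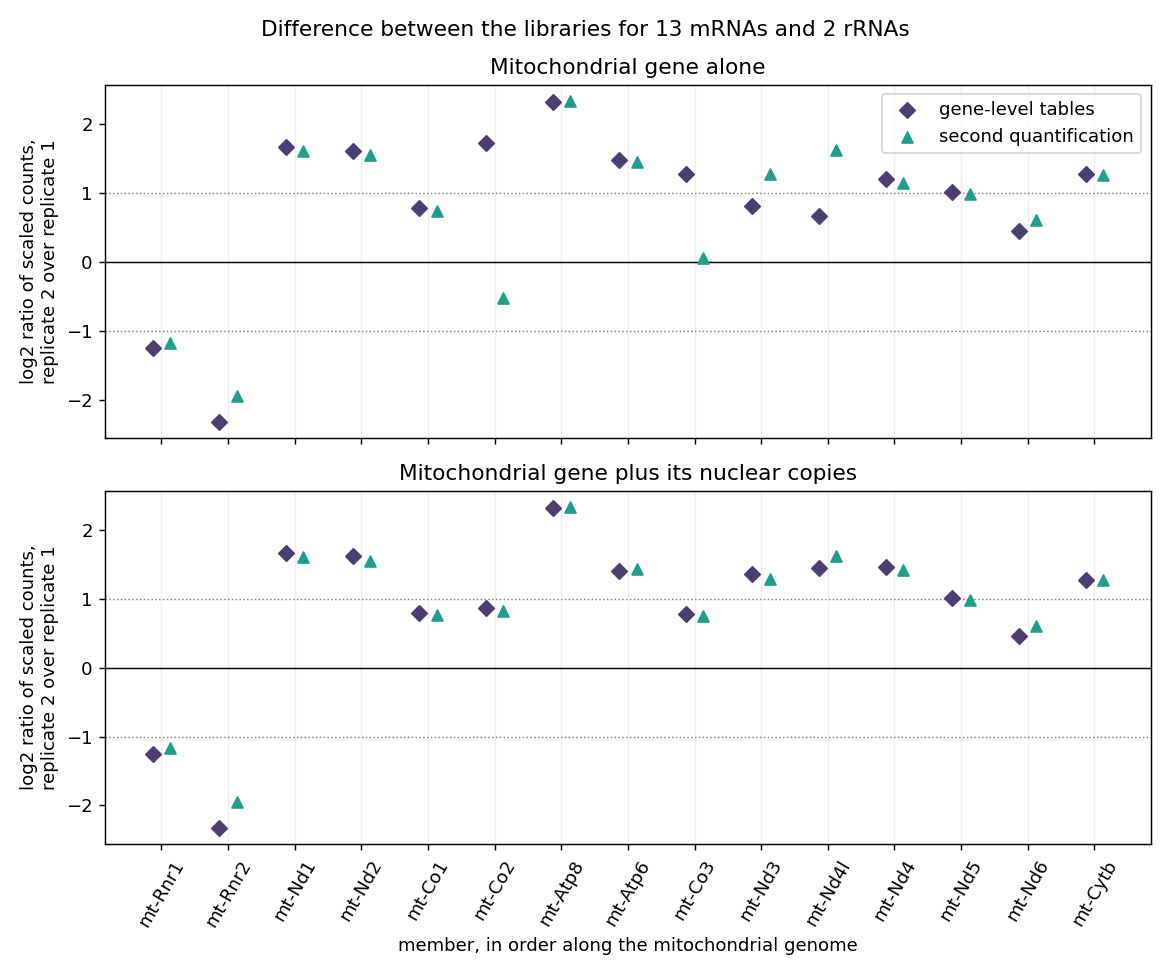
Log2 ratio of scaled counts, replicate 2 over replicate 1, for 13 mRNAs and 2 rRNAs in genome order, from the gene-level tables (diamonds) and the second quantification (triangles), for the gene alone (top) and with its nuclear copies (bottom). Dotted lines mark a ratio of 1 in size. With copies the quantifications lie within 0.19 of each other for every mRNA, all 13 above 0, and both rRNAs are below -1.

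With copies, the ratios of the oxidase mRNAs lay close together. The 3 oxidase mRNAs had log2 ratios between 0.77 and 0.87, and in the second quantification between 0.75 and 0.82. The 7 complex I mRNAs ran from 0.45 to 1.67 with a median of 1.44. mt-Nd1 had 1.67, with a counting interval of 1.66 to 1.69, and mt-Nd2 had 1.62. Of the 10 mRNAs outside complex IV, 9 had a larger ratio than every oxidase mRNA in both quantifications, and the exception was mt-Nd6.

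mt-Nd6, the single mRNA of the light strand, had the smallest ratio of the 13 with copies in both quantifications, 0.45 with a counting interval of 0.44 to 0.47 in the gene-level tables and 0.60 in the second quantification. Without copies, mt-Co2 and mt-Co3 were lower than mt-Nd6 in the second quantification. mt-Nd6 had 46008 expected counts in replicate 2 and 40077 in replicate 1. Without the use of strand in counting, its reads and reads of heavy-strand RNA antisense to it cannot be told apart. The largest ratio was that of mt-Atp8, 2.32 with a counting interval of 2.27 to 2.37, and 2.34 in the second quantification. The mRNAs of the heavy strand between these ends include mt-Cytb at 1.28, mt-Nd5 at 1.02, and with copies mt-Atp6 at 1.41, mt-Nd4 at 1.47 and mt-Nd3 at 1.36. Complex IV took 48.1% of the counts of all mRNAs with copies in replicate 2 and 56.6% in replicate 1. Complex I took 37.7% in replicate 2 and 32.4% in replicate 1.

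Fragment length, as read from the effective lengths, also differed between the libraries. The gap between length and effective length, taken on mt-Nd5, was 215 bases in replicate 2 and 234 bases in replicate 1. Over the 13 mRNAs the Spearman correlation of gene length with the log2 ratio with copies was -0.20 in the gene-level tables and -0.36 in the second quantification. All points share both libraries, and 3 mRNAs are shorter than 400 bases. The part of fragment length in the ratios was not tested.

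Both mitochondrial rRNAs were lower in replicate 2 by more than a log2 ratio of 1, where 1.18% of all genes were that much lower in the gene-level tables and 1.29% in the second quantification. mt-Rnr1 had 5135 expected counts in replicate 2 and 14597 in replicate 1, a log2 ratio of -1.25 with a counting interval of -1.30 to -1.21. mt-Rnr2 had 4077 in replicate 2 and 24488 in replicate 1, a log2 ratio of -2.33 with a counting interval of -2.38 to -2.28. The second quantification gave -1.17 and -1.95. So the rRNAs and mRNAs of the same strand moved apart between the libraries.

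Nuclear rRNA genes moved the same way as mt-Rnr1 and mt-Rnr2. The 354 genes annotated as rRNA on nuclear chromosomes, whose counts lay mostly on CT010467.1, summed to 824 expected counts in replicate 2 and 8660 in replicate 1, a log2 ratio of -3.14, and of -1.39 in the second quantification. Gm42418, which is not among these 354 genes, had 15433 expected counts in replicate 2 and 46332 in replicate 1, a log2 ratio of -1.33. The libraries were depleted of rRNA before sequencing. Its part in these differences was not tested.

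The tRNAs could be read in the second quantification alone, where their lengths of 59 to 75 bases gave effective lengths of 19.3 to 27.1 bases in replicate 2 and 15.8 to 18.6 bases in replicate 1. They summed to 2336 estimated counts in replicate 2 and 1107 in replicate 1, which is 0.00724% and 0.00364% of the tables. The labelled size range of 250 to 400, given with no unit, lies above the length of every tRNA. It also lies above the fragment lengths as read from the effective lengths, 215 bases in replicate 2 and 234 bases in replicate 1. The 8 light-strand tRNAs held 1888 of these counts in replicate 2 and 1062 in replicate 1. That is 80.8% in replicate 2 (exact binomial 95% interval 79.2% to 82.4%) and 95.9% in replicate 1 (94.6% to 97.0%).

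The light-strand tRNAs had the higher median, and the ranges of the strands overlapped. Their median was 208 counts in replicate 2 and 41.5 counts in replicate 1, against 29 and 2.5 for the 14 heavy-strand tRNAs. The light-strand tRNAs ran from 17 to 510 counts in replicate 2 and from 7 to 535 in replicate 1. The heavy-strand tRNAs ran from 3 to 88 counts in replicate 2 and from 0 to 9 in replicate 1, and mt-Ti, mt-Tr and mt-Tt had 0 in replicate 1. The use of strand in counting was not given in the sources used here, so light-strand tRNA reads and reads of heavy-strand RNA that runs antisense to them cannot be told apart.

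Of 22 tRNAs, 20 had more counts in replicate 2, also after scaling, and the exceptions were mt-Tf and mt-Ts1. The median log2 ratio of scaled counts was 2.42 over the tRNAs, against -0.01 over all genes that averaged at least 100 counts. Only 5 of the 22 tRNAs averaged at least 100 counts, so many of these directions rest on few counts. The 2 medians therefore come from genes under unlike count filters. The share of all genes that were higher in replicate 2 by any amount was not computed. mt-Ts1 had the most counts, 510 in replicate 2 and 535 in replicate 1, a log2 ratio of scaled counts of -0.21. mt-Tp had 355 in replicate 2 and 309 in replicate 1, a log2 ratio of 0.06. The tRNAs for cysteine and asparagine differed more. mt-Tc had 395 counts in replicate 2 and 59 in replicate 1, a log2 ratio of 2.59 with a counting interval of 2.20 to 3.02. mt-Tn had 264 in replicate 2 and 18 in replicate 1, a log2 ratio of 3.69 with a counting interval of 3.04 to 4.51. mt-Te had 152 in replicate 2 and 98 in replicate 1, a log2 ratio of 0.49.

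The remaining light-strand tRNAs had fewer counts. mt-Ty, for tyrosine, had 139 in replicate 2 and 24 in replicate 1, mt-Ta, for alanine, 56 and 12, and mt-Tq, for glutamine, 17 and 7. All 3 were higher in replicate 2. The 8 light-strand tRNAs together had a log2 ratio of 0.69 with a counting interval of 0.58 to 0.80, although mt-Ts1 and mt-Tp carry much of that sum. This pooled value describes no common ratio. The 4 light-strand tRNAs between mt-Nd2 and mt-Co1 had 2.77, with a counting interval of 2.49 to 3.07. The other 4 had -0.02, with a counting interval of -0.15 to 0.11. These pooled values describe no common ratio either. Within the other 4, mt-Ts1 and mt-Tp carry most of the counts, while mt-Te had 0.49 and mt-Tq 1.08. The split by position was not among the planned results. The 14 heavy-strand tRNAs summed to 448 counts in replicate 2 and 45 in replicate 1, a log2 ratio of 3.16 with a counting interval of 2.73 to 3.65.

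**Figure D4:**
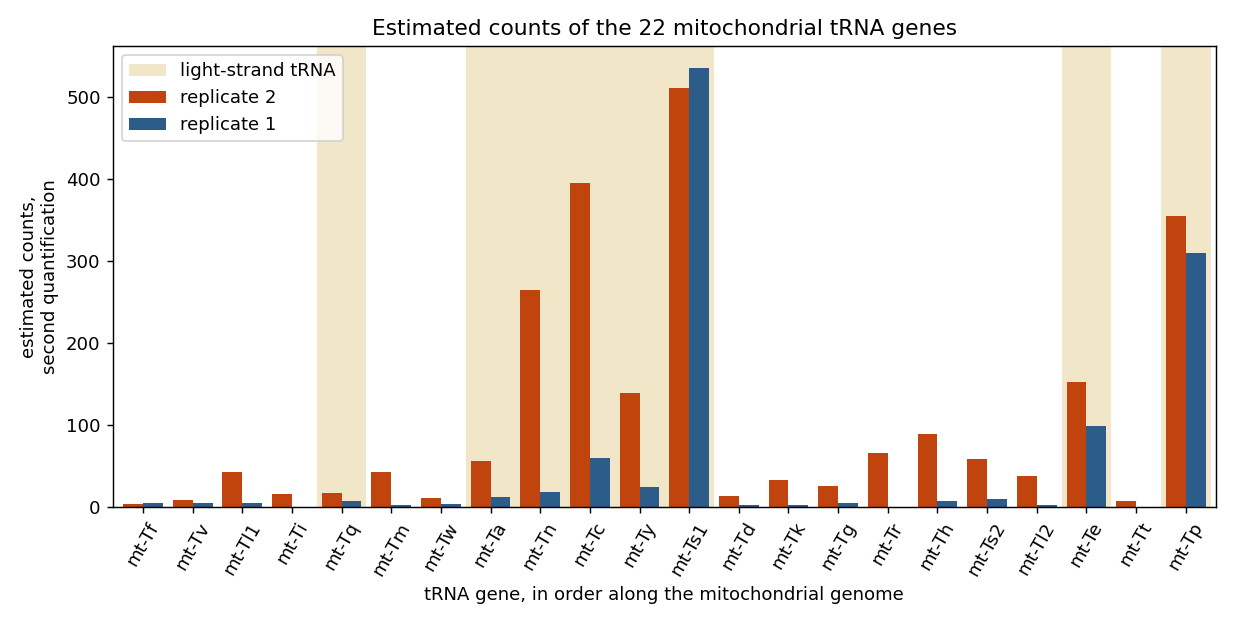
Estimated counts of the 22 tRNA genes in the second quantification, in genome order, in replicate 2 (red) and replicate 1 (blue), with tRNAs of the light strand on a shaded ground. mt-Ts1 and mt-Tp are nearly level between the libraries, mt-Tn and mt-Tc are higher in replicate 2, and the heavy-strand tRNAs do not exceed 88 counts.

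The nuclear genes that make and process mitochondrial RNA were detected at low levels. Of 43 listed genes 42 were matched, and 40 reached 1 TPM in each library. The highest in the gene-level tables was Mterf3, of the mitochondrial termination factor family, at 28.7 TPM in replicate 2, against 20.5 TPM in replicate 1. Next came Ssbp1, which binds single-stranded mitochondrial DNA, at 20.8 and 21.4 TPM. Pnpt1, a polynucleotide phosphorylase that degrades RNA, followed at 19.9 and 21.4 TPM. The lowest was Mterf2, of the same family as Mterf3, at 0.42 TPM in replicate 2, against 0.31 TPM in replicate 1. Of the 34 that averaged at least 100 counts, 0 passed a log2 ratio of 1 between the libraries, where 2.01% of all genes passed, so a count of 0 in a list of this size is near the background. The median ratio of the list was 0.02.

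Nuclear genes for subunits of the same complexes had ratios spread around a median near 0. Of 81 measured genes 73 reached 1 TPM in each library, and 0 of 54 that averaged at least 100 counts passed a log2 ratio of 1, again near the 2.01% of all genes. The median ratio was -0.08. The highest were Atp5b, the catalytic subunit of ATP synthase, at 82.6 TPM in replicate 2, against 83.4 TPM in replicate 1, Cox4i1, an oxidase subunit, at 34.2 and 54.5 TPM, and Cox7c, another, at 42.1 and 46.4 TPM. The lowest were Cox4i2, Cox7b2, Cox8b and Cox8c, which encode alternative forms of oxidase subunits. They had 0 counts in the gene-level tables of both libraries, a limit of 3 counts each. In the second quantification Cox8c was also at 0 TPM in both libraries. Cox4i2 had 0.20 TPM there in replicate 2 and 0.12 in replicate 1, Cox7b2 0.14 and 0.28, and Cox8b 0.20 and 0.96.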

How the data were processed

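The deposited gene-level tables hold an expected count, a TPM, a posterior mean count and a posterior SD (a score here) per gene, which the authors derived from alignments to the transcriptome, per the deposited notes beside the files. A second deposited table per library holds an estimated count and a TPM per transcript, derived from the read files directly, per the same notes. Both use mm10 and GENCODE release 21. The programs, their versions and strand use were not given in the sources used here. The members and gene lists were chosen with earlier results of these data known.

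Entries that name no annotated gene (26345 per library) held 0.337% of expected counts in replicate 2 and 1.01% in replicate 1 and were left out. The second quantification lacks 86 genes. Its estimated counts totalled 32279044 in replicate 2 and 30419009 in replicate 1. Counts were rounded and scaled by TMM factors (edgeR 4.0.16 in R 4.3.3, on the 14892 genes past filterByExpr). Log2 ratios used a prior count of 0.5 and passed at 1 in size with a mean count of at least 100. Counting intervals are exact (Clopper-Pearson, 95%) and cover counting error only, since no molecular identifiers are given. Gene-level and second counts were each scaled to their table total. Copies were found with blastn 2.17.0, at 90% identity over 100 bases. The ratio computation was tested on simulated data. DESeq2 1.42.0 gave an alternative scaling. Other alternatives were library totals, other prior counts, filters, TPM ratios and leaving out each replicate; sums with nuclear copies for ratios and levels (those for shares were planned) and posterior means were added after seeing the data. Named were all mRNAs and rRNAs, tRNAs with a mean of at least 100 counts, copies with a mean count of at least 100, and the 3 highest and the lowest of each nuclear list. Prorp was not matched to a symbol, and Atp5o was left out because 2 entries share that symbol.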

Additional observations from a re-analysis of the deposited data

How the results depend on the processing

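The median log2 ratio of the 13 mRNAs, replicate 2 over replicate 1, was 1.28. It was 1.26 with DESeq2 size factors, 1.32 with library totals, 1.37 with totals taken without the 37 members, 1.22 as a TPM ratio, 1.36 with nuclear copies and 1.20 with posterior mean counts. The log2 ratio of mt-Co2 reversed to -0.52 in the second quantification, and with copies it did not. The median of gene-level over second counts was 0.21. It reversed to -0.39 with counts as given, since the second tables hold more counts in all, and was 1.21 as a TPM ratio and 0.31 with copies. Of the 5 mRNAs apart between the quantifications, 0 were apart with copies. The tRNA share was 0 in the gene-level tables and 0.00544% in the second quantification. mt-Co1 held 25.2% of the summed TPM of the mRNAs and rRNAs. It held 38.3% without genes under 200 bases of effective length, 38.5% as counts per kb and 17.9% with copies. At a TPM of at least 10, 11 genes of the RNA machinery list and 36 of the respiratory list were detected, against 40 and 73 at 1.

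Leaving out 1 replicate left the mitochondrial share between 3.47% and 6.82%, that of mRNAs between 3.30% and 6.77%, that of rRNAs between 0.0495% and 0.171%, and that of tRNAs at 0. The median between quantifications lay between 0.15 and 0.27, the mRNAs apart stayed at 5, and mt-Co1 held between 21.4% and 28.9% of the summed TPM. No paired analysis was possible because the series has 1 group.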
